A study of Drosophila melanogaster with 2 samples.

Results

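The genes described here encode the factors that start, elongate and end translation in Drosophila melanogaster, and the question is which of them carried maf-S at their promoters in the embryo. They were taken by symbol: every protein-coding gene named eIF, eEF or eRF followed by a digit in the annotation of the dm6 assembly, which gave 53 of 13968 protein-coding genes. Binding was measured by chromatin immunoprecipitation and sequencing (ChIP-seq) with an anti-GFP antibody, on embryos of mixed sex aged 0 to 24 h. The embryos came from 1 transgenic line that stably expresses maf-S with eGFP joined to its C-terminus. The series had 1 group, biological replicates 2 and 3 of this line, with no other genotype, treatment or time window. There is therefore no contrast between conditions, and the spread between the replicates is the only error available. The antibody sees the tagged transgene product, not the endogenous protein, and whole embryos mix all tissues. The control experiment named in the labels was not analysed here, and no source used here gives the read depth.

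A eukaryotic ribosome begins translation when eIF2 delivers the initiator tRNA to the small subunit, eIF3 holds the complex together, and the eIF4 factors bring in the capped mRNA. Initiation ends with the joining of the large subunit, after which eEF1 brings aminoacyl-tRNAs, eEF2 moves the ribosome along, and eRF1 with eRF3 ends the chain at a stop codon. maf-S is the small Maf protein of the fly, a basic leucine zipper protein known as the dimer partner of Cap'n'collar (Cnc). A gene is called bound below when the summit of a peak on the authors' thresholded list of 3205 peaks lay within 1 kb of any of its transcription start sites. Of the 53 factor genes, 20 were bound (37.7%), against 19.4% of all protein-coding genes. Each step had at least 1 bound gene. The counts were 6 of 10 for the ternary complex, start codon selection and subunit joining and 2 of 5 for the eIF2B exchange factor. They were 5 of 16 for eIF3, 2 of 13 for the eIF4 factors, 4 of 7 for elongation and 1 of 2 for release. The share of the eIF4 factors, 15.4%, was near that of all protein-coding genes.

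Of the elements searched under these peaks, a core promoter element was the most frequent. The DNA replication-related element (DRE, TATCGATA, searched on both strands), a core promoter element known as the binding site of the factor DREF and found at many housekeeping genes, lay within 100 bp of the summit at 7 of the 20 bound genes (35.0%). The same windows held it at 5.74% of all thresholded peaks and at 8.65% of the 2093 peaks within 1 kb of a protein-coding start. The core of the site known for Cnc and Maf, TGACNNNGC, was in none of the 20 windows. It was at 5.74% of all peaks and 6.21% of those near protein-coding starts. With only 20 windows, finding none is near these shares. At eIF1, eIF3a and eIF2gamma the start of another gene was nearer to the summit than their own, so the element there cannot be assigned to the factor gene by distance. Of the 14 bound factor genes whose own start was nearest, 4 had a DRE in the window (28.6%), against 9.24% of the 1818 such protein-coding genes. The elements under the 7 peaks are shown for the sequence around them, since their flanks differ from gene to gene. Each is 30 bases of the dm6 genome (RefSeq copy of Release 6), written 5′ to 3′ on the strand of the gene, with the DRE in capitals.
eEF1gamma: ggcctaggaaaTATCGATAtatcgccgtaa
eIF1: ggcagggcaacTATCGATAagcatttcgta
eIF2A: ttactatcgctTATCGATAcaccgcgtaca
eIF2gamma: gggcggcactcTATCGATAcgcatcgcagt
eIF3a: tcggcctgaacTATCGATAacgcagccagg
eIF3f1: cccacccgcacTATCGATAggcccttttct
eRF1: atattttaagaTATCGATAatgtcatcgga
These lie at 3R:29220120-29220149 (plus strand), 3L:3223034-3223063 (plus), 3L:21824865-21824894 (plus), 3R:15263517-15263546 (minus), 3R:4433915-4433944 (minus), 3R:4714172-4714201 (minus) and 3L:20348319-20348348 (plus). The centre of the element shown was 18 bp (eIF3a) to 66 bp (eIF3f1) from the summit. eIF2gamma held 3 copies in its window, with centres 6, 74 and 92 bp upstream of its start site, and the copy nearest to the summit is shown.

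A second element was searched for near the start sites. The TCT-type initiator, a pyrimidine stretch known as the start site of ribosomal protein genes, was searched as TCTTT or CCTTT within 10 bp of a start site on the strand of the gene. A match was found at 10 of the 53 factor genes (18.9%). The shares beside it were 5.02% of 13945 protein-coding genes whose windows could be read and 8.42% of the bound ones. The search did not require a match to span the start site, so the counts are of nearby letters and not of placed initiators. Among genes of related function the share was 68 of 93 cytosolic ribosomal protein genes (73.1%), 2 of 73 mitochondrial ribosomal protein genes (2.74%) and 2 of 35 aminoacyl-tRNA synthetase genes (5.71%). The 10 genes were 4 bound ones, eEF2, eEF5, eIF3f1 and eIF3m, and 6 unbound ones, eEF1alpha2, eEF1delta, eIF3d1, eIF3g1, eIF3i and eIF4A. The match is shown in capitals for a bound elongation factor and a bound eIF3 subunit whose DRE ends just before it. It is also shown for the unbound helicase of the eIF4 group and the unbound copy of eEF1alpha.
eEF2: gtcgctgcagcgcctcgcTCTTTcctgtcg
eIF3f1: cccgcactatcgataggcCCTTTtcttgca
eIF4A: cttttgcaagatggagccTCTTTtgcttgg
eEF1alpha2: gcagaggatatacacggcagTCTTTaacca
The capitals begin at position +4 in eEF2, eIF3f1 and eIF4A and at +6 in eEF1alpha2, with the start site as +1, so none of these 4 matches begins at the annotated start itself. The windows are 2L:21682102-21682131 (minus strand), 3R:4714168-4714197 (minus), 2L:5981749-5981778 (plus) and 3R:31739645-31739674 (plus), again from the dm6 genome. The initiator TCAGT, common at other fly promoters, was found in the same windows at 2 factor genes (3.77%), eEF1alpha2 and eIF2gamma, against 16.6% of all protein-coding genes.

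The share of bound factor genes was set beside that of all protein-coding genes under other call rules. Within 500 bp of a start site there were 18 bound factor genes (34.0%, against 16.9%), and with the stronger 1602 peaks of the thresholded list there were 14 (26.4%, against 11.0%). The 3205 strongest peaks of replicate 2 alone called 18 (34.0%, against 19.7%) and those of replicate 3 alone 19 (35.8%, against 18.9%). Wider distances raised both shares, to 24 factor genes within 2 kb (45.3%, against 23.6%) and 27 within 5 kb (50.9%, against 36.0%). The first 6000 pooled peaks called 28 (52.8%, against 30.6%), and a peak of any rank in the pooled list of 30000 was within 1 kb of 41 (77.4%, against 63.2%). Using the peak interval in place of the summit called 20 (against 20.3%), and using the 5' end of the gene alone called 20 (against 17.8%). The factor genes had the higher share under each of these 10 rules, which overlap and draw on the same replicates, so they are not independent. These differences were given no test, because the genes were chosen with earlier results of these data known.

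**Figure D1:**
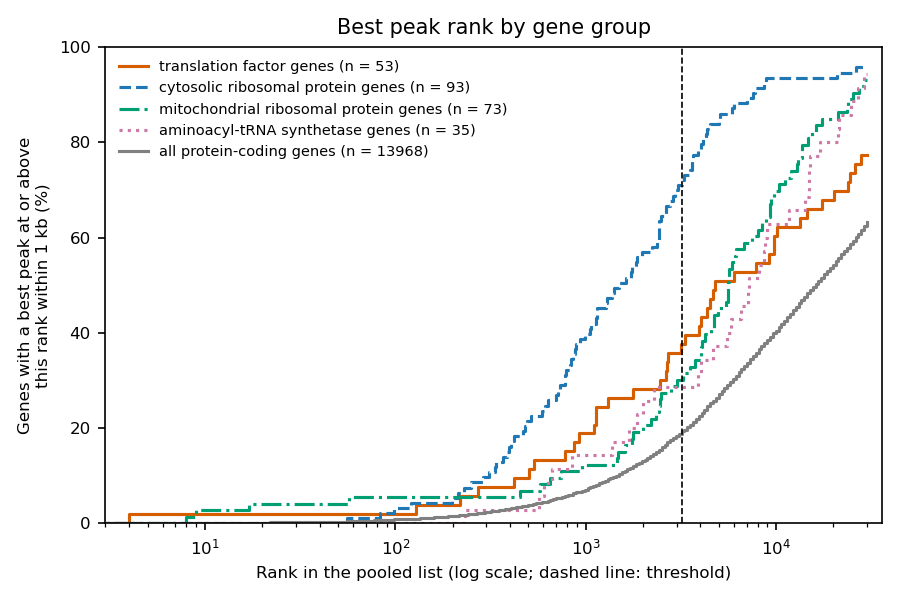
Percent of the genes of each group (vertical axis) whose best peak within 1 kb of a start site has at least the rank on the horizontal axis (log scale) in the pooled list, with the threshold at rank 3205 as a dashed line. At the threshold the 53 translation factor genes stand at 37.7%, between the cytosolic ribosomal protein genes at 72.0% and the mitochondrial ribosomal protein genes at 30.1%, and by the end of the list they reach 77.4%, below all 3 related groups.

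Set beside the other genes of protein synthesis, the factor genes were a mixed group. Cytosolic ribosomal protein genes were bound at 67 of 93 (72.0%), mitochondrial ribosomal protein genes at 22 of 73 (30.1%) and aminoacyl-tRNA synthetase genes at 10 of 35 (28.6%). The median best rank of the factor genes in the pooled list was 4779, with genes that had no peak placed last. It was 1499 for the cytosolic ribosomal proteins, 5610 for the mitochondrial ones, 7167 for the synthetases and 15830.5 for all protein-coding genes. The curves of best rank show the mixture, since the factor genes start above the synthetases and the mitochondrial group near the threshold yet end below both. At the low end, 12 factor genes had no pooled peak within 1 kb, while 10 of them had none in any of the 3 lists (27.2% of all protein-coding genes had none). At the high end, 10 factor genes had a peak among the first 1000, against 7.25% of all protein-coding genes. The signal of the 20 bound genes ran from 72.9 to 1381 with a median of 141, against a median of 119 over all 2707 bound protein-coding genes.

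The number of annotated start sites varied with binding. Of the 31 factor genes with 1 start site, 6 were bound (19.4%), against 14.9% of all protein-coding genes with 1. Of the 22 with 2 or more, 14 were bound (63.6%), against 32.0%. A gene with more start sites has more places where a summit can count. The mean number of start sites was 1.53 for the factor genes and 1.41 for all protein-coding genes.

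**Figure D2:**
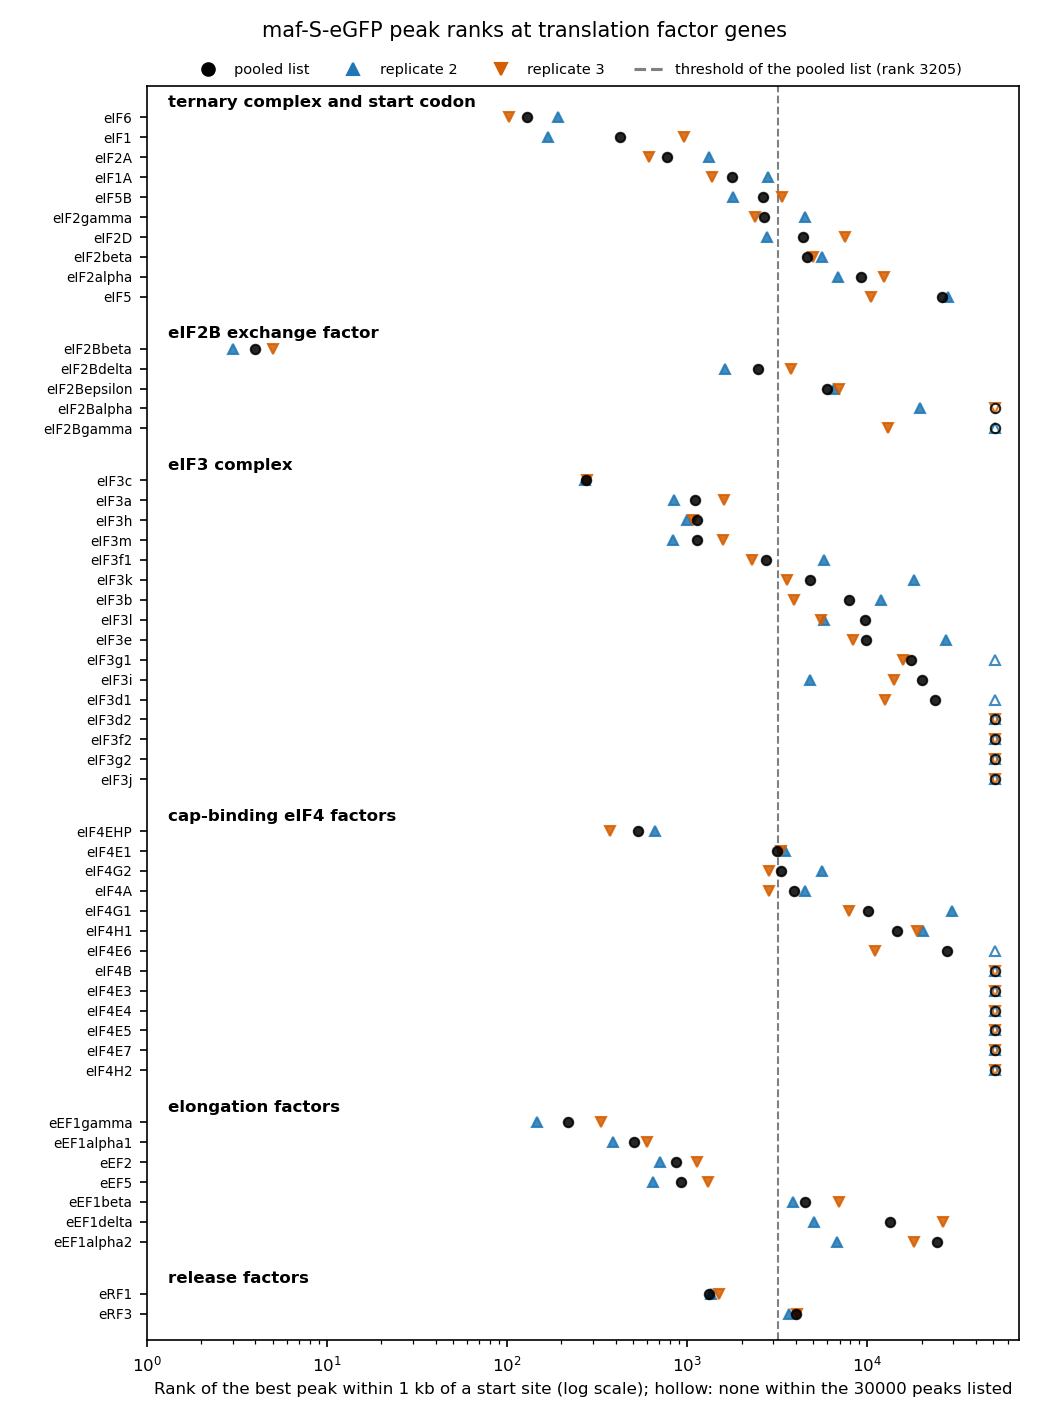
Rank of the best peak within 1 kb of a start site (horizontal axis, log scale) for each of the 53 genes, grouped by role, in the pooled list (circles), replicate 2 (upward triangles) and replicate 3 (downward triangles). Hollow marks mean that no peak was listed, and the dashed line is the threshold at rank 3205. eIF2Bbeta stands at ranks 3 to 5 in the 3 lists, and most eIF4E copies and the second copies of eIF3d, eIF3f and eIF3g are hollow.

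The group of the ternary complex and start codon also holds eIF5B and eIF6, which act at the joining of the large subunit. All 10 of its genes had a pooled peak and 6 were bound, or 4 of 8 without eIF5B and eIF6. The highest signal was at eIF6, which keeps the large ribosomal subunit from joining too early. Its peak (2R:23850271-23850529) had a pooled signal of 370 at rank 129, with a signal of 131 (rank 191) in replicate 2 and 239 (rank 102) in replicate 3. Both replicates thus placed it among their first 200 peaks. The summit lay 126 bp upstream of eIF6, but the start of the antisense RNA gene CR45928 was nearer, at 97 bp, and ytr was 646 bp away. eIF1, which guards start codon choice, had a pooled signal of 220 at rank 422 (3L:3222914-3223102). Its replicates differed most of all bound factor genes, with a signal of 138 (rank 169) in replicate 2 and 84.9 (rank 953) in replicate 3, a 5.64-fold gap in rank. The summit was 320 bp upstream of eIF1 and 61 bp upstream of RpL28, a ribosomal protein gene, so this peak cannot be assigned to eIF1 by distance.

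The alternative initiator tRNA carrier eIF2A was bound at 3L:21824725-21825114 with a pooled signal of 162 (rank 776). Its signal was 53.9 in replicate 2 (rank 1313) and 106 in replicate 3 (rank 616), and no other gene started within 1 kb of the summit. eIF1A, the partner of eIF1 on the small subunit, had a pooled signal of 103 (rank 1778) with replicate ranks of 2804 and 1375. eIF5B, the GTPase of subunit joining, had 81.6 (rank 2626). The matching replicate peaks of eIF5B ranked 3423 and 3369, both past the rank of the threshold, although another replicate 2 peak within 1 kb of its start sites ranked 1804. A further thresholded peak lay in an intron 10779 bp from its start (3L:3449629-3450018, signal 77.3, rank 2877). The peaks of eIF2A and eIF1A thus ranked within the first 3205 of both replicates, and the matched peaks of eIF5B in neither.

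The subunits of eIF2 itself had weaker peaks. eIF2gamma, the GTPase subunit, was bound at 3R:15263313-15263702 with a pooled signal of 81.1 (rank 2658), with 27.4 in replicate 2 (rank 4517) and 49.9 in replicate 3 (rank 2374). The eIF2gamma summit was 50 bp upstream of its own start, 44 bp from that of Set and 50 bp from that of Su(var)3-9. eIF2beta ranked 4643 and eIF2alpha, the subunit phosphorylated in the integrated stress response, ranked 9225, so both were unbound. For eIF2alpha the summit sat 2 bp inside the gene, with rank 6907 (signal 22.3) in replicate 2 and 12345 (signal 18.4) in replicate 3. eIF2D, another tRNA carrier, missed the threshold at rank 4362 but was split between replicates, at rank 2754 in replicate 2 and 7507 in replicate 3. eIF5, which triggers GTP hydrolysis by eIF2, ranked 26027.

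The eIF2B complex, the guanine nucleotide exchange factor of eIF2, held the highest peak of all factor genes. The peak at X:2703697-2704078 near eIF2Bbeta had a pooled signal of 1381 and rank 4 of the whole list, with a signal of 624 (rank 3) in replicate 2 and 755 (rank 5) in replicate 3. Its summit was 677 bp upstream of eIF2Bbeta and 42 bp upstream of Ugalt, so the nearest promoter is not that of the factor gene. eIF2Bdelta had a similar geometry at lower signal, 84.9 (2R:23385606-23385995, rank 2462), with the summit 720 bp upstream of its start and 333 bp upstream of CG30414. Its rank was 1627 (signal 48.3) in replicate 2 and 3746 (signal 37.8) in replicate 3. The catalytic subunit eIF2Bepsilon ranked 5980, and eIF2Balpha and eIF2Bgamma had no pooled peak within 1 kb. For these last genes 1 replicate each listed a peak, at rank 19557 in replicate 2 for eIF2Balpha and at 13006 in replicate 3 for eIF2Bgamma. Within 500 bp of a start site neither eIF2Bbeta nor eIF2Bdelta was bound.

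eIF3, the largest initiation complex and the scaffold on the small subunit, had 5 bound genes of 16. The highest was eIF3c at 2R:17665441-17665830, with a pooled signal of 268 (rank 273) and near equal ranks of 270 (signal 114) and 278 (signal 153) in replicates 2 and 3. Its summit was 42 bp upstream of the eIF3c start, and the next gene, CCHa1-R, was 568 bp away. eIF3a, eIF3h and eIF3m followed closely, with pooled signals of 134, 133 and 132 at ranks 1108, 1129 and 1139. Their summits lay 52 bp upstream, 7 bp downstream and 43 bp upstream of the start, and each of the 3 peaks had another coding gene within 200 bp. eIF3h had a second thresholded peak 244 bp downstream of the start (rank 1411). The weakest was eIF3f1 with 80.0 (3R:4714057-4714446, rank 2718), at rank 5713 (signal 24.4) in replicate 2 and 2272 (signal 51.4) in replicate 3.

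The other 11 eIF3 genes were unbound. The subunits eIF3k, eIF3b, eIF3l and eIF3e ranked 4779, 7883, 9752 and 9807, while eIF3g1, eIF3i and eIF3d1 ranked 17367, 20069 and 23742. eIF3j and the second copies eIF3d2, eIF3f2 and eIF3g2 had no peak in any list. The lists end at 30000 rows, so such genes are known only to have no peak above the rank at which a list stops.

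The eIF4 group, which binds the mRNA cap and unwinds the leader, had the fewest bound genes for its size, 2 of 13. That share (15.4%) was near the 19.4% of all protein-coding genes. The cap-binding repressor eIF4EHP had a pooled signal of 199 (3R:24108919-24109308, rank 534), with 76.4 (rank 660) in replicate 2 and 137 (rank 370) in replicate 3. Its summit lay 154 bp upstream, a second thresholded peak lay 356 bp upstream (rank 1464), and CG18428 started 222 bp from the first. This long gene also held an intronic peak 9765 bp from its start (3R:24099000-24099389, signal 173, rank 684). eIF4E1, the main cap-binding protein, passed the threshold narrowly, with a pooled signal of 72.9 at rank 3157 (3L:9402293-9402682), 28 bp upstream of the start. Its ranks were 3506 (signal 31.5) and 3319 (signal 40.9), so it was the only bound factor gene in the first 3205 peaks of neither replicate.

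The member just outside the threshold was eIF4G2, a second copy of the eIF4G scaffold, with a pooled signal of 70.7 at rank 3323. It ranked 5610 (signal 24.6) in replicate 2 and 2856 (signal 44.9) in replicate 3, and its start coincided with that of CG33111. eIF4A, the helicase, ranked 3930 (signal 63.4) with ranks of 4474 (signal 27.6) and 2835 (signal 45.2), but that summit was 723 bp upstream of eIF4A and 23 bp from the start of chic, the profilin gene. eIF4G1, the main scaffold, ranked 10083 in the pooled list, 29422 (signal 11.4) in replicate 2 and 7915 (signal 23.6) in replicate 3. The helicase cofactor gene eIF4H1 ranked 14531 and eIF4E6 ranked 27824. No list held a peak near eIF4B, eIF4H2, eIF4E3, eIF4E4, eIF4E5 or eIF4E7. Of these, eIF4E3 is known for its part in fly spermatogenesis.

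Elongation factors had the best median rank of the role groups with more than 2 genes, 924, and 4 of 7 were bound. eEF1gamma, a subunit of the exchange complex of eEF1alpha, led with a pooled signal of 289 (3R:29220045-29220235, rank 218). Its signal was 147 (rank 146) in replicate 2 and 145 (rank 332) in replicate 3, and its summit was 4 bp upstream of the start with no other gene within 1 kb. eEF1alpha1, which carries aminoacyl-tRNA to the ribosome, had 203 (2R:11891846-11892235, rank 504), with 97.4 (rank 386) and 108 (rank 595). Its summit was 81 bp upstream of an internal start site, inside an intron of the longest transcript. eEF2, the translocase, had 155 (2L:21681932-21682321, rank 863), with 73.6 (rank 708) and 77.1 (rank 1132), 11 bp upstream of a start site. eEF5, the fly eIF5A, had 149 (2R:24057553-24057942, rank 924), with 76.7 (rank 649) and 70.6 (rank 1307). All 4 ranked higher in replicate 2 than in replicate 3.

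The unbound elongation factor genes were eEF1beta at rank 4500, eEF1delta at 13393 and eEF1alpha2 at 24494. The eEF1alpha2 peak was matched at rank 6792 in replicate 2, and in replicate 3 the best peak within 1 kb ranked 18201. eRF1, which reads the stop codon, was bound with a pooled signal of 123 (3L:20348095-20348484, rank 1317), with 52.8 (rank 1362) in replicate 2 and 65.5 (rank 1495) in replicate 3. Its partner, the GTPase eRF3, was unbound at rank 4016 (signal 62.6). The eRF3 summit was 28 bp upstream of the start, with rank 3688 (signal 30.6) in replicate 2, and in replicate 3 the best peak within 1 kb ranked 4086. The eRF3 ranks therefore lay near the threshold in every list, on its far side.

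Genes that exist in several copies were split. There were 19 factor genes in 7 families of copies (eIF4E with eIF4EHP, eIF4G, eIF4H, eIF3d, eIF3f, eIF3g and eEF1alpha), of which 4 were bound (21.1%, against 19.4% of all protein-coding genes) and 8 had no peak in any list (42.1%, against 27.2%). The share of bound genes among the copies was thus near that of all genes. Of the other 34 genes, 16 were bound (47.1%) and 2, eIF3j and eIF4B, had none (5.88%). In eIF3f and eEF1alpha 1 copy was bound and the other was not, at ranks 2718 and 504 for the bound eIF3f1 and eEF1alpha1. In eIF3d, eIF3g and eIF4H the first copy had a pooled peak, below the threshold, and the second had none. In eIF4G neither copy was bound, and the second copy had the better rank, 3323 for eIF4G2 against 10083 for eIF4G1. In the eIF4E family eIF4E1 and eIF4EHP were bound and eIF4E6 ranked 27824. These counts describe 7 families and were not tested.

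**Figure D3:**
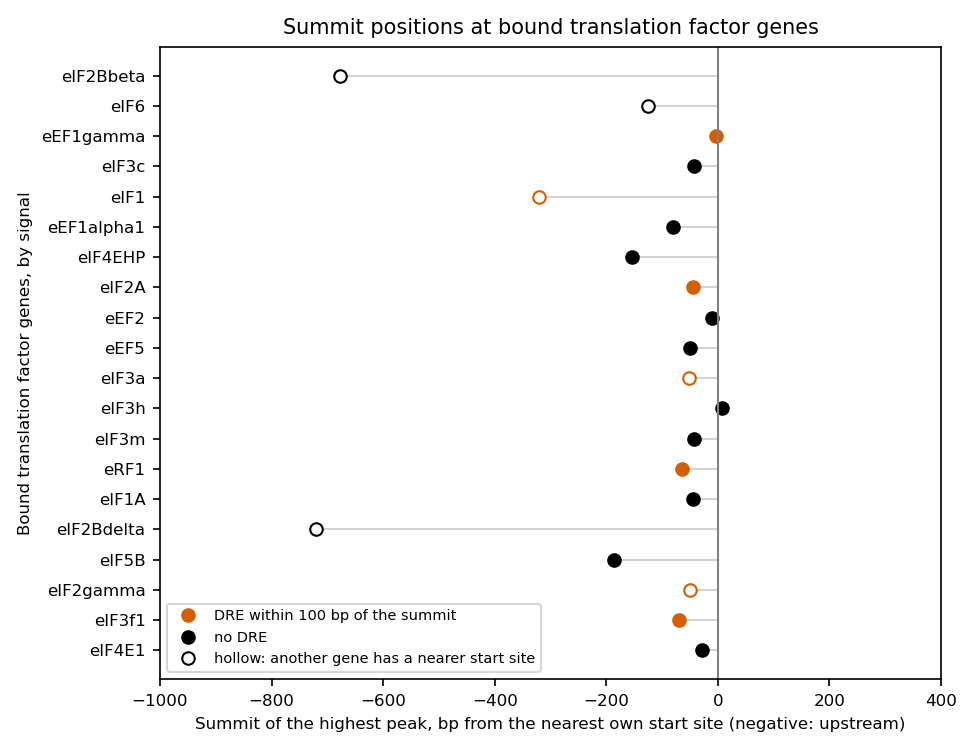
Position of the summit of the highest peak of each of the 20 bound genes, in bp from the nearest start site of that gene (horizontal axis, negative values upstream), ordered by signal from the top. Orange marks have a DRE within 100 bp of the summit, and hollow marks have a start site of another gene nearer. Of the 20 summits, 17 lie within 200 bp of the start, and those of eIF2Bbeta and eIF2Bdelta lie -677 and -720 bp away.

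The summits sat close upstream of the start sites. Of the 20, 19 were upstream of the nearest start site of the factor gene, against 84.9% of bound protein-coding genes, with eIF3h the exception. The median position was -51 bp, against -119 bp, and 17 of 20 lay within 200 bp, against 61.3%. When position was taken from the 5' end of the gene alone, 15 of 20 were upstream (75%, against 79.2% of bound protein-coding genes), so the higher share of upstream summits among factor genes was not seen there. Promoters shared with another gene were about as common as among all bound protein-coding genes. In 14 of 20 (70%) the summit was also within 1 kb of a start site of another gene, against 66.8%. The same 14 of 20 (70%) had a protein-coding gene among these neighbours, against 62.8% of all bound protein-coding genes. Counting a gene as bound where no other gene had a nearer start site left 14 factor genes (26.4%, against 13.0% of all protein-coding genes). Where no other gene at all started within 1 kb of the summit, 6 were left (11.3%, against 6.43%): eEF1gamma, eEF1alpha1, eIF2A, eEF2, eIF3f1 and eIF4E1.

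The DRE and a second core promoter element were also counted at start sites, whether bound or not. A DRE lay within 100 bp of a start site of 14 of the 53 factor genes (26.4%), against 8.49% of all protein-coding genes and 13.0% of the bound ones. It was found at 8 of the 20 bound factor genes and at 6 of the 33 unbound ones, which were eEF1delta, eIF2alpha, eIF3l, eIF4A, eIF4B and eIF4E6. Motif 1 (GGTCACAC, both strands), another element of housekeeping promoters, was found at 9 of the 53 (17.0%). The shares beside it were 7.56% of all protein-coding genes and 12.1% of the bound ones. Of these 9 factor genes, 3 were bound and 6 unbound. In the summit windows motif 1 was found at eEF1alpha1, eIF2A and eIF2Bdelta, 3 of 20 (15%), against 3.59% of all thresholded peaks and 5.30% of those near protein-coding starts. Genes with more start sites have more windows in which an element can be found, and this was not corrected for.

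Other elements searched on both strands in the 20 summit windows were rare. The E-box CACGTG was found at eEF2 (5.00%, against 2.62% of all thresholded peaks) and the AP-1 type site TGANTCA at eIF4EHP (5.00%, against 4.84%). The CRE TGACGTCA and TGATGNAA, the element known for ATF4 in mammals, were found at none, against 0.343% and 2.40%. GAGAG was found at eIF3c and eIF2Bdelta (10%, against 23.1%) and CAGCTG at eIF3h (5.00%, against 10.8%). The windows of the factor genes had a median GC content of 42.5% (29.4 to 49.8), against 37.3% at peaks near protein-coding starts. The part of base composition in these counts was not tested. A match describes the letters of the reference genome, and the absence of one says nothing about which factor was there.

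**Figure D4:**
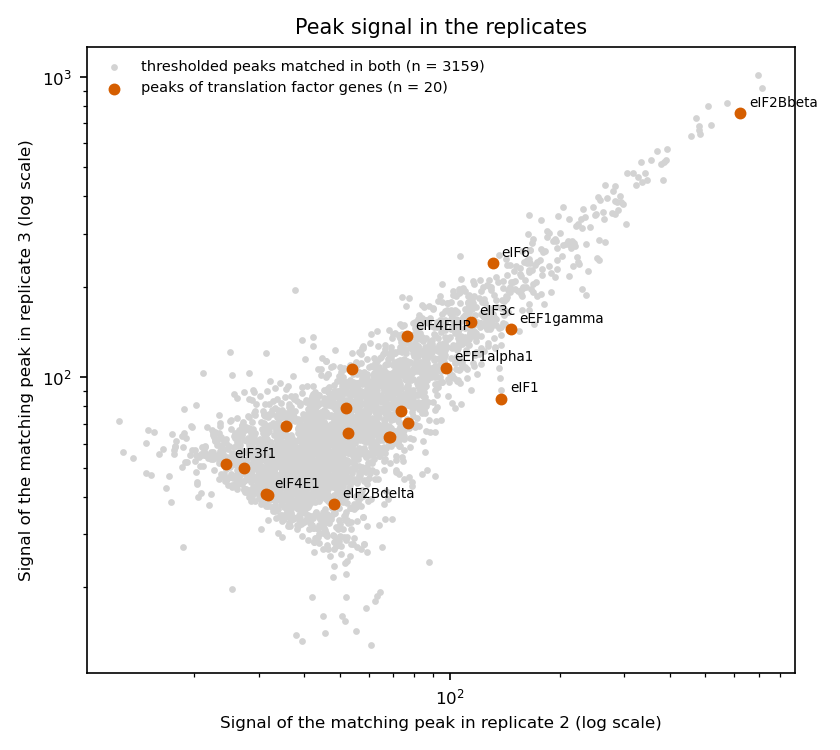
Signal of the matching peak in replicate 2 (horizontal axis) and replicate 3 (vertical axis), both on log scales, for the 3159 thresholded peaks matched in both replicates (grey) and the 20 peaks of translation factor genes (orange). eIF2Bbeta is at the upper right with signals of 624 and 755, and eIF1 lies furthest to the side of replicate 2 among the labelled peaks, with 138 and 84.9.

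Both replicates held all 20 peaks. Each pooled summit had a replicate summit within 150 bp in replicate 2 and in replicate 3, as did 3159 of all 3205 thresholded peaks. Across the 20 peaks the correlation of log2 signal between the replicates was 0.89, and across the 3159 it was 0.79. Both are given as a description, since the peaks of a library share its depth. The 20 include eIF2Bbeta, far above the others at 624 and 755, and the correlation without it was not computed. The median gap in rank between the replicates was 0.92 on the log2 scale for the 20 peaks and 0.54 for all matched peaks. Replicate 2 ranked 11 of the 20 higher and replicate 3 ranked 9 higher, so neither replicate favoured the group as a whole. The widest gaps after that of eIF1 were at eIF3f1 and eIF2Bdelta, in opposite directions, with eIF3f1 higher in replicate 3 and eIF2Bdelta higher in replicate 2.

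The 3205 strongest peaks of both replicates reached 15 factor genes within 1 kb, all of them bound (28.3% of the 53, against 15.5% of all protein-coding genes). eIF2Bdelta and eIF5B were reached in replicate 2 alone and eIF3f1 and eIF2gamma in replicate 3 alone, while eIF4E1 was reached in neither. Of the unbound genes, eIF2D was reached in replicate 2, and eIF4A and eIF4G2 in replicate 3. The plot of ranks by role shows these genes clustered around the dashed line. In all, 8 unbound factor genes ranked between 3323 and 5980 in the pooled list, 24.2% of the 33 unbound ones, against 14% of unbound protein-coding genes with a best rank up to 6000.

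By chromosome arm, 2 of 6 factor genes were bound on 2L (against 19.9% of protein-coding genes there), 6 of 12 on 2R (18.6%), 5 of 12 on 3L (19.8%) and 6 of 15 on 3R (21.1%). On X 1 of 7 was bound (14.3%, against 17.1%), and on chromosome 4 the 1 gene, eIF4G1, was unbound (against 8.75%). The 20 genes lay under 20 distinct peaks, so no peak was counted for more than 1 factor gene.

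Of other genes of the pathway, 7 of 19 in a list of recycling, modification and rescue genes and 6 of 15 regulators were bound, against 19.4% of all protein-coding genes. The first list also holds the selenocysteine elongation factor gene eEFSec, unbound at rank 8790, and 6 mitochondrial translation factor genes, none of which was bound. Leaving those 6 out could only raise the share, to 7 of 13, since none of them was bound. In the first list the highest signals were at Dph4 (232, rank 385) and Dph1 (121, rank 1366), which make the diphthamide of eEF2, and at Rack1 (190, rank 582), a scaffold on the small subunit. Also bound were pix, the fly ABCE1 that recycles ribosomes, Dph2, and both enzymes that make the hypusine of eEF5, Dhps and nero. In the regulator list Lk6, the kinase of eIF4E1, had a pooled signal of 1198 at rank 7, with ranks of 10 and 6 in replicates 2 and 3 and the summit at -980 bp from its start. The kinase gene mTor followed with 140 (rank 1035) and pAbp, the poly(A)-binding protein, with 133 (rank 1128). Thor, the 4E-BP that blocks eIF4E1, had 102 (rank 1787) at 40 bp inside the gene, with ranks of 879 and 3209. NAT1 and Pdcd4 were the other bound regulators. The stress factor gene crc, the fly ATF4, was unbound at rank 5132.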

How the data were processed

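Peak lists on dm6 were used as deposited: 1 list of 30000 peaks for each replicate, 1 of 30000 from the pooled replicates, and the authors' thresholded list, which was exactly the 3205 pooled peaks of highest signal. Each peak carries an interval, a summit and a signal value given by the authors, per the labels as input to the irreproducible discovery rate step. The signal was used to describe and rank peaks within a list, and values of different lists were not taken to share a scale. The dm3 lists were left aside. Not given in the sources used here: aligner, peak caller, threshold and depth.

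Genes came from Ensembl release 115 (18277 genes and 24111 start sites, without transposable elements) and sequence from the RefSeq copy of Release 6. Pooled and replicate summits within 150 bp were matched. Python 3.11.15 was used with numpy 2.4.6, pandas 2.3.3, scipy 1.17.1 and matplotlib 3.10.9; peak assignment was checked on simulated data. With 1 group no test between samples was made.

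The members and lists were chosen with earlier results of these data known. Full values are given for the 10 bound genes of highest signal, the highest of each role, the 3 best unbound genes, those beside the threshold, the 3 widest replicate gaps and selected genes. Of the other pathway genes, 34 of 36 requested were matched, Tor under its symbol mTor, and the 3 highest of each list are described with Thor, Lk6 and crc. Others named were chosen after their values were seen.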

Additional observations from a re-analysis of the deposited data

How the results depend on the processing

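The number of bound factor genes was 20 and stayed between 14 and 28 under changes of distance, list or replicate. Beside the share of all protein-coding genes, it was 18 within 500 bp (16.9% of all), 24 within 2 kb (23.6%) and 27 within 5 kb (36.0%). It was 14 with the stronger 1602 peaks (11.0%) and 28 with the first 6000 pooled peaks (30.6%). With 1 replicate left out it was 18 to 19 (19.7% and 18.9%). A stricter rule, with no other gene starting within 1 kb of the summit, left 6 (6.43%). The median best rank moved from 4779 to 5980 within 500 bp and to 4016 within 2 kb, and to between 5534 and 5610 in single replicates. The peaks shared with another gene fell from 14 of 20 to 9 of 18 when both distances were 500 bp, against 60.8% of bound protein-coding genes at that distance. Upstream summits numbered 15 of 20 from gene 5' ends (79.2% of bound protein-coding genes) and 13 of 14 with the stronger 1602 peaks (86.0%). They numbered 17 of 18 in replicate 2 alone (83.8%) and 17 of 19 in replicate 3 alone (84.1%). The DRE was found in 6 of 20 windows of 50 bp on each side, against 3.12% of all thresholded peaks and 4.73% of those near protein-coding starts. With 250 bp it was found in 10 of 20, against 8.86% and 13.2%, since a wider window finds more matches at any peak. No paired analysis was possible because the series has 1 group. The unknown depth and the 2 replicates limit how precisely any rank is known.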
